A study of Homo sapiens with 12 samples.

Results

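ZCCHC17 is a protein with an S1 RNA-binding domain and a CCHC zinc knuckle, a short fold in which 3 cysteines and 1 histidine hold a zinc ion. The genes described here are ZCCHC17 and 9 others whose symbols carry the same prefix (ZCCHC2, ZCCHC3, ZCCHC4, ZCCHC7, ZCCHC8, ZCCHC9, ZCCHC10, ZCCHC14 and ZCCHC24). They were chosen by symbol, and all 10 were found among the 59653 gene symbols of the count table and passed the filter on low counts. The question was whether any of the other 9 rose when ZCCHC17 was reduced.

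The RNA came from neurons made from induced pluripotent stem cells of the human IMR-90 line. Cells of 6 libraries received a negative control siRNA (siNC), and cells of 6 libraries received an siRNA against ZCCHC17 (siZCC). All 12 libraries are of 1 cell line, and nothing in the labels says that replicates came from separate cultures, so the p-values measure the spread between these libraries, which may be technical. The siRNA sequence, the day of differentiation and the time after treatment are not given in the labels, and the letters NPC in the sample titles are not explained there.

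CCHC zinc knuckles bind single-stranded nucleic acid, and the genes that carry them serve different steps of RNA metabolism. ZCCHC17 is found in the nucleolus and with the large ribosomal subunit, and it has been tied to splicing through the speckle protein pinin. ZCCHC8 is the scaffold of the nuclear exosome targeting complex and ZCCHC7 a subunit of the TRAMP complex, both of which hand nuclear RNA to the exosome for decay. ZCCHC14 and ZCCHC2 bind TENT4 poly(A) polymerases, ZCCHC4 methylates an adenosine of the large ribosomal RNA, and ZCCHC3 assists the sensing of foreign nucleic acid by CGAS and the RIG-I-like receptors. No role is given here for ZCCHC9, ZCCHC10 and ZCCHC24.

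The shared feature can be read in the coding sequences. The knuckle is encoded by 14 codons (42 bases) in which cysteine codons stand at places 1, 4 and 14 and a histidine codon at place 9. This pattern of codons was found in all 10 genes, and in 71 of the 19474 coding genes searched in GENCODE v29 (0.365%). A match describes the letters only, since other zinc-binding folds can share the spacing. The sequences below were read 5′ to 3′ on the coding strand from GENCODE v29 transcripts of GRCh38, with the zinc-binding codons in capitals. They are shown to let the knuckle of the silenced gene be compared with those of its relatives, and where a gene has several, the copy sharing most bases with that of ZCCHC17 is given.
ZCCHC17: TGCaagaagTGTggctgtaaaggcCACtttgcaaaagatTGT
ZCCHC2: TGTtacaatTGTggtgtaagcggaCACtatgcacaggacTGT
ZCCHC7: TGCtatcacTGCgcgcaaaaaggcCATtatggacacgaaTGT
ZCCHC9: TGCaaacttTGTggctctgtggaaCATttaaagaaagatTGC
ZCCHC8: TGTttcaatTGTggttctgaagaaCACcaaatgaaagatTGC
ZCCHC24: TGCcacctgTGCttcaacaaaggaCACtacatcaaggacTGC
ZCCHC14: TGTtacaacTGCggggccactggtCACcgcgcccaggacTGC
ZCCHC3: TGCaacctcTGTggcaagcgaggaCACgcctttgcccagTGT
ZCCHC10: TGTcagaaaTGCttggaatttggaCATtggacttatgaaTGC
ZCCHC4: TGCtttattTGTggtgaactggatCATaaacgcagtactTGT

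The copies differed widely outside the capital letters. The knuckle of ZCCHC2 shared 27 of 42 bases with that of ZCCHC17, those of ZCCHC7 and ZCCHC9 at most 26, and that of ZCCHC8 25. The lowest value among the sequences shown was 17 bases, in ZCCHC4. These counts include the zinc-binding codons, most bases of which the pattern fixes in advance. ZCCHC7 and ZCCHC9 carried 4 knuckle patterns each, ZCCHC3 carried 3, and each of the others carried 1. In ZCCHC17 the pattern covered codons 133 to 146 of 241, and 5 of its 8 complete coding transcripts held it. ZCCHC24 also had 241 codons, with its knuckle at codons 134 to 147, as the map of codon positions shows.

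**Figure D1:**
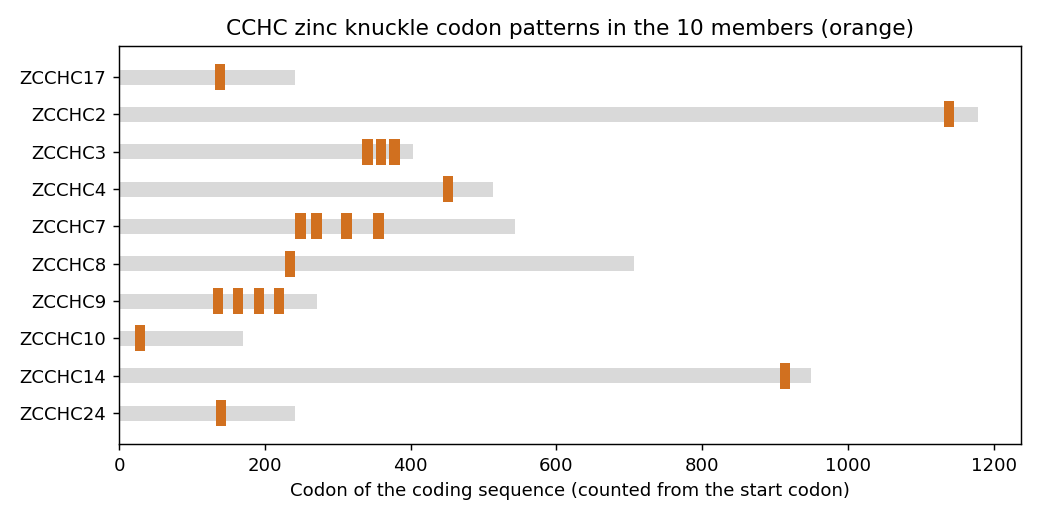
The horizontal axis counts codons from the start codon of each gene's coding sequence, grey bars are the coding sequences and orange blocks the CCHC zinc knuckle codon patterns. ZCCHC7 and ZCCHC9 each hold 4 blocks and ZCCHC3 holds 3, while the other 7 genes hold 1 each.

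The libraries held 90755953 to 120023356 counts in siNC and 76115083 to 105389055 in siZCC, and the siNC library with the lowest total, replicate 4, stood apart from the other 5 (109973707 to 120023356). Mitochondrial transcripts took 4.02% to 4.33% and 4.22% to 4.51% of counts. Markers are read against all genes tested, of which 11.4% were higher and 10.8% lower in siZCC at an adjusted p under 0.05. Of the 12 neuron markers listed, all were detected, with a summed level of 3372 to 3787 CPM (counts scaled to library size with TMM factors) in siNC and 3067 to 3476 in siZCC, 1 of them higher and 5 lower in siZCC. The 10 neural progenitor markers were also present (6317 to 6731 and 6357 to 6911 CPM, 3 higher and 1 lower). Of 7 markers of dividing cells, 6 fell, and their summed level was 676 to 758 CPM in siNC and 547 to 637 in siZCC, while myeloid markers summed to at most 2.997 CPM. Of 3 pluripotent cell markers tested, 2 rose, and the list summed to 15.4 to 17.0 CPM in siNC and 19.99 to 21.9 in siZCC, with no overlap. Of 6 fibroblast or mesenchymal markers 0 rose and 2 fell (median log2 fold change -0.18, summed level 92.6 to 323 and 50.04 to 166 CPM), of 7 astrocyte markers 2 rose and 1 fell (1627 to 1851 and 1686 to 2007 CPM), and of 5 oligodendrocyte lineage markers tested 1 fell. In such bulk samples, fewer cells of a type and less RNA per cell cannot be told apart, and the part of these marker changes in the results that follow was not tested. The labels do not mention a further split: IL1B, an inflammatory cytokine, was at 5.23 to 15.97 CPM in 3 libraries of each group and at most 0.0999917 CPM in the other 3 of each.

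ZCCHC17 fell in every siZCC library. The gene lies at chr1:31296982-31364953 on the plus strand of GRCh38 and has 1921 exonic bases in GENCODE v29. Its level was 53.99 CPM in the lowest siNC library, 57.2 at the median and 60.99 in the highest, and 9.37, 9.85 and 10.6 CPM in siZCC. The groups were far apart: the lowest siNC value was 5.09 times the highest siZCC value, and each siZCC library kept 16.5% to 18.6% of the siNC mean. The log2 fold change was -2.51 (SE 0.0402, 95% interval -2.59 to -2.42, adjusted p 3.52e-17 by the edgeR quasi-likelihood test, Benjamini-Hochberg adjusted), the deepest fall and the smallest p of the 24671 genes tested. The exact two-sided permutation test gave 0.00216, the smallest p that 6 libraries against 6 allow. An antisense gene, AL451070.1, shares 188 exonic bases with ZCCHC17 (9.79% of them), and it held 2 to 9 counts in siNC libraries and 0 to 4 in siZCC, against 727 counts or more for ZCCHC17 in any library.

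None of the other 9 genes rose past the threshold. With ZCCHC17 included, 3 of 10 genes were called, all of them lower in siZCC, where 22.2% of all genes tested were called, 11.4% higher and 10.8% lower. Among the 9 others, ZCCHC8 and ZCCHC10 fell, and 7 were not called. At an unadjusted p under 0.05 edgeR counted 4 of the 9, where 34.4% of all genes tested were counted, with ZCCHC2 and ZCCHC4 on the higher side. DESeq2's Wald test and limma voom also called 3 of the 10 lower and 0 higher, against 24.8% and 22.1% of all genes. The 9 log2 fold changes were small, 5 above 0 and 4 below, with a median of 0.05 and a median size of 0.06, against -0.002 and 0.11 over all genes tested. The filter let in genes from about 0.0997 CPM, and the 9 were not set against genes of like level.

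The intervals limit how large a rise could have been. In this fit the highest upper bound of a 95% interval among the 9 genes was 0.17 on the log2 scale, or 12.2%, for ZCCHC4. The lowest lower bound was -0.23, or -14.4%, for ZCCHC10. In CPM, ZCCHC17 lost 46.9, while the 9 others summed to 340 ± 10.4 CPM in siNC and 340 ± 3.91 in siZCC (SD, n = 6 each). Their rises added up to 6.85 CPM and their falls to -6.85 CPM. These are sums of reads of genes of different length, and they compare groups, not genes. In no case did the 2 groups separate completely among these 9 genes, which 9.74% of all genes tested did (5.25% higher and 4.5% lower). The plot of levels by library shows ZCCHC17 as the sole panel with a gap.

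**Figure D2:**
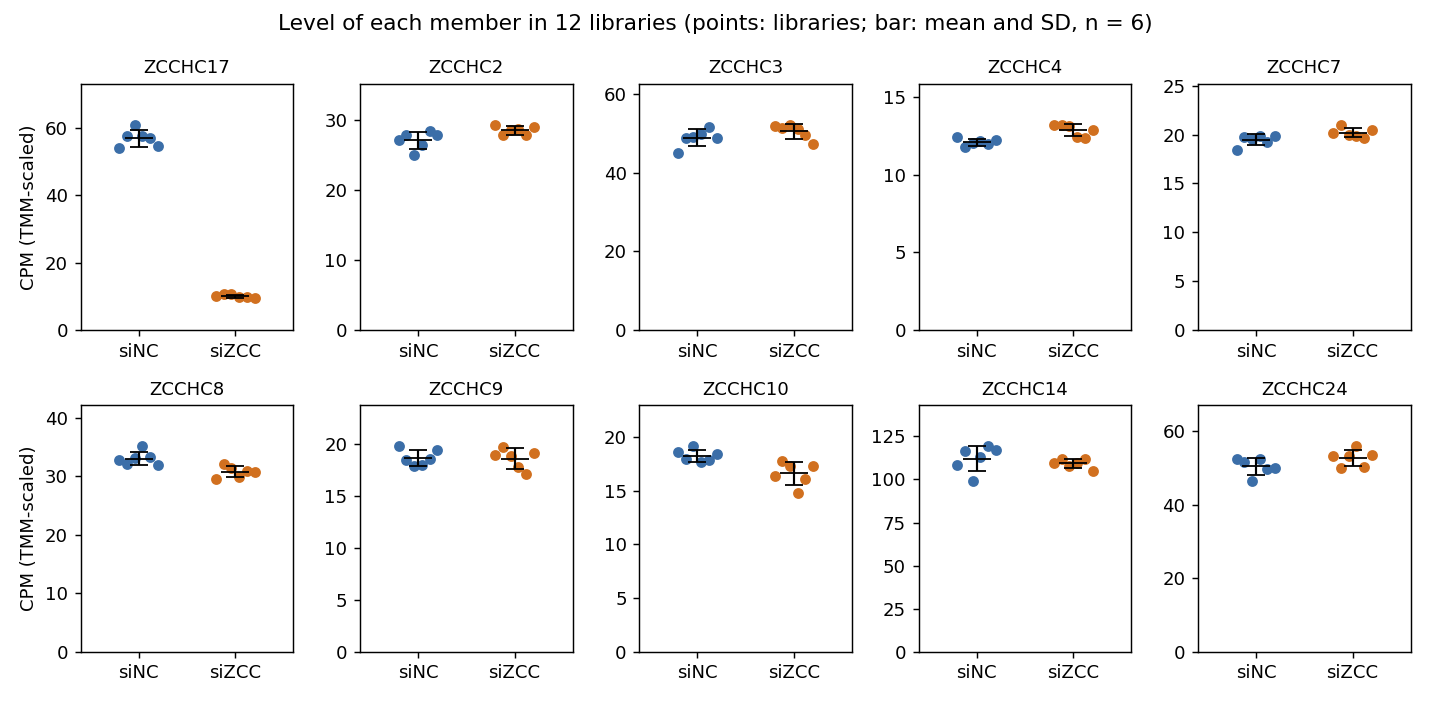
Each panel gives the TMM-scaled CPM of 1 gene, with a linear axis from 0, in the 6 siNC (blue) and 6 siZCC (orange) libraries, and bars for the mean and SD. ZCCHC17 drops from 53.99 or more to 10.6 or less, and the points of the 2 groups overlap in the other 9 panels.

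**Figure D3:**
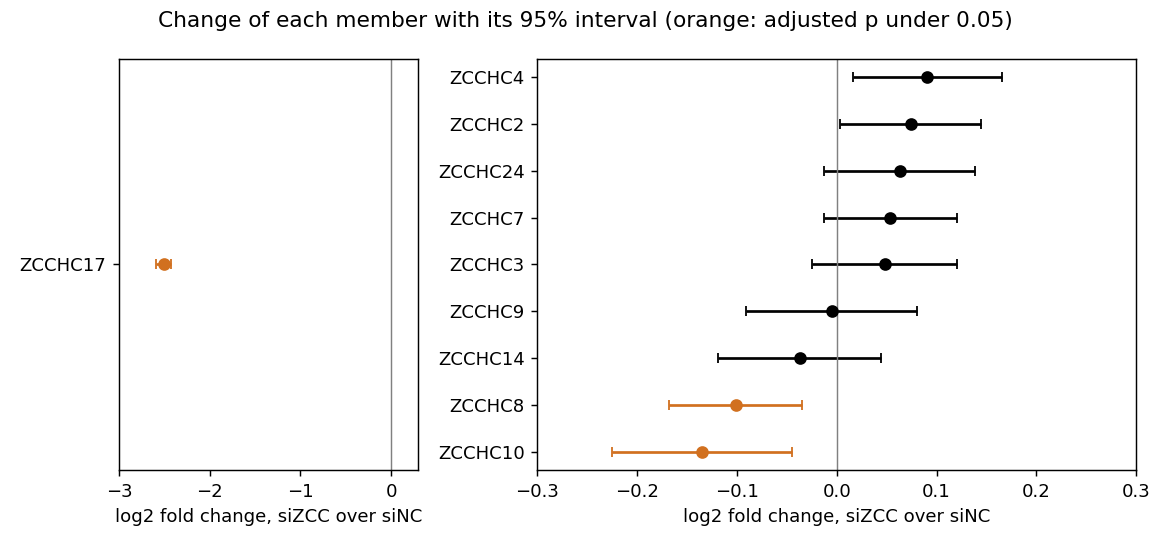
Points are log2 fold changes of siZCC over siNC with 95% intervals, ZCCHC17 in the left panel and the 9 others on a finer axis in the right panel. The points in orange (adjusted p under 0.05) are ZCCHC17 at -2.51, ZCCHC10 at -0.14 and ZCCHC8 at -0.10.

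The adaptors of nuclear RNA decay were examined next. ZCCHC8, the scaffold of the nuclear exosome targeting complex (chr12:122471600-122501073, minus strand), was at 31.9, 32.9 and 35.1 CPM (lowest, median, highest) in siNC and at 29.6, 30.8 and 32.1 CPM in siZCC. In 5 of 6 siZCC libraries it lay below every siNC library. Its log2 fold change was -0.10 (SE 0.0316, 95% interval -0.17 to -0.03, adjusted p 0.0288 by the edgeR quasi-likelihood test, Benjamini-Hochberg adjusted); the level fell by 6.78%. The call was lost without siNC replicate 4 (adjusted p 0.0703), without siZCC replicate 1 (0.0624) and without siZCC replicate 4 (0.0680), all with the direction kept. It was also lost within each side of the IL1B split (0.156 with high and 0.218 with low IL1B in edgeR). ZCCHC7, the TRAMP subunit (chr9:37120539-37358149, plus strand), was at 18.5, 19.7 and 19.9 CPM in siNC and 19.7, 20.1 and 21.0 in siZCC, so that the groups overlapped. Its log2 fold change of 0.05 (SE 0.0317, 95% interval -0.01 to 0.12) did not pass (adjusted p 0.2497 in the same edgeR test).

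The exosome and the partners of ZCCHC8 and ZCCHC7 were counted from a list. Of 26 genes of the exosome and its adaptors, 1 rose and 4 fell (19.2%, against 22.2% of all genes tested, with a median log2 fold change of -0.04). SRRT, which links the cap-binding complex to decay, fell by 0.17 on the log2 scale (SE 0.0394, from 111 ± 5.56 to 98.2 ± 5.29 CPM, SD, n = 6 each, adjusted p 0.00464 by the edgeR quasi-likelihood test, Benjamini-Hochberg adjusted). EXOSC7, of the exosome ring, rose by 0.13 (SE 0.0377, adjusted p 0.0240 in that edgeR test), and EXOSC2, a cap subunit, changed by -0.09 (SE 0.0276, adjusted p 0.0280). The helicase MTREX, which works with both ZCCHC8 and ZCCHC7, was at 74.7 ± 1.46 and 72.8 ± 2.703 CPM (adjusted p 0.416), and RBM7, the RNA-binding partner of ZCCHC8, at 23.4 ± 1.90 and 21.0 ± 2.09 (adjusted p 0.0904, both by edgeR). The count of 5 was 3 without siNC replicate 1, 4 or 6, 2 without siZCC replicate 1 or 4, 1 without siZCC replicate 3, and 2 with no filter on low counts. EXOSC7 lost its call when siNC 4, siNC 6, siZCC 3 or siZCC 6 was left out (adjusted p 0.0541 to 0.0641 in edgeR), and EXOSC2 when siNC 1, siNC 3, siZCC 1, siZCC 3 or siZCC 4 was (0.0526 to 0.0597).

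The 2 genes that bind TENT4 poly(A) polymerases were not called. ZCCHC14 (chr16:87406246-87492045, minus strand) ran over 99.2, 115 and 119 CPM in siNC and 105, 109.6 and 112 in siZCC, all siZCC values lying within the siNC range. Its log2 fold change was -0.04 (SE 0.0388, 95% interval -0.12 to 0.04, adjusted p 0.541 by the edgeR quasi-likelihood test, Benjamini-Hochberg adjusted). ZCCHC2 (chr18:62523007-62587709, plus strand), whose knuckle is nearest in sequence to that of ZCCHC17, was at 25.0, 27.4 and 28.4 CPM in siNC and 27.8, 28.6 and 29.3 in siZCC. All 6 siZCC libraries stood above the siNC median and 4 above every siNC library, yet the difference of 0.07 (SE 0.0336, 95% interval 0.003 to 0.14) did not pass over all genes (adjusted p 0.129 in the same edgeR test).

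The tailing enzymes were read from a list of 14 genes tested, which also holds SAMD4A and SAMD4B, RNA-binding proteins that are not tailing enzymes. Of the 14, 1 rose (SAMD4B) and 2 fell (21.4%, against 22.2% of all genes, median 0.01). TENT5B, a cytoplasmic poly(A) polymerase, had the largest change, -0.58 (SE 0.0789, adjusted p 7.27e-05 by the edgeR quasi-likelihood test, Benjamini-Hochberg adjusted), from 11.97 ± 1.58 to 7.98 ± 0.611 CPM without overlap of the groups. Its relative TENT5A fell by 0.19 (SE 0.0563, adjusted p 0.0227 by edgeR), and SAMD4B, an RNA-binding repressor of the Smaug family, rose by 0.09 (SE 0.0250, adjusted p 0.0155 by edgeR). TENT5A was not called without siNC replicate 1 (adjusted p 0.0567 by edgeR) or siZCC replicate 1 (0.0520), and SAMD4B was not called with no filter on low counts (0.0793). The polymerases that ZCCHC14 and ZCCHC2 bind were not called: TENT4A changed by -0.05 (SE 0.0295, adjusted p 0.207) and TENT4B by -0.08 (SE 0.0327, adjusted p 0.0906, both by edgeR).

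ZCCHC4, the ribosomal RNA methyltransferase (chr4:25312785-25370383, plus strand), came nearest to a rise. It was at 11.8, 12.1 and 12.4 CPM in siNC and 12.3, 13.0 and 13.2 CPM in siZCC, and 5 of 6 siZCC values exceeded all siNC values. The log2 fold change was 0.09 (SE 0.0356, 95% interval 0.02 to 0.17), with an unadjusted p of 0.0205 and an adjusted p of 0.0772 by the edgeR quasi-likelihood test, Benjamini-Hochberg adjusted. With the counts corrected for GC content and length it was 0.11 and passed (adjusted p 0.0136).

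Among 19 genes that write, erase or read N6-methyladenosine, 3 rose and 2 fell (26.3%, against 22.2% of all genes, median 0.009). YTHDF2, a reader that directs methylated RNA to decay, fell from 109.8 ± 1.90 to 97.9 ± 1.59 CPM (log2 fold change -0.17, SE 0.0241, adjusted p 1.41e-04 by the edgeR quasi-likelihood test, Benjamini-Hochberg adjusted), with no overlap of the groups. ZC3H13, of the writer complex, fell by 0.10 (SE 0.0258, adjusted p 0.0105 by edgeR), and METTL16, another RNA methyltransferase, rose by 0.09 (SE 0.0265, adjusted p 0.0173 by edgeR). METTL5, which methylates the small ribosomal RNA, changed by 0.04 (SE 0.0390, adjusted p 0.496 by edgeR). TRMT112, from the same list, was among the genes called and rose by 0.12 (SE 0.0385, adjusted p 0.0328 by edgeR), with overlap of the groups. The count of 5 was 2 with no filter on low counts and 3 with upper quartile scaling or without siNC replicate 4, siZCC replicate 1 or siZCC replicate 5.

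ZCCHC3, the cofactor of nucleic acid sensing (chr20:296968-300321, plus strand), is encoded by a single exonic block. Its level was 45.1, 49.0 and 51.6 CPM in siNC and 47.3, 51.2 and 52.2 CPM in siZCC, with wide overlap. The log2 fold change of 0.05 (SE 0.0345, 95% interval -0.02 to 0.12) was not called (adjusted p 0.354 by the edgeR quasi-likelihood test, Benjamini-Hochberg adjusted). Of 15 genes of nucleic acid sensing, 1 rose and 7 fell (53.3%, median -0.13), where 22.2% of all genes tested were called and 10.8% fell. The groups did not overlap in 4 of the 15, and in 9.74% of all genes.

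TRIM25, a ubiquitin ligase that acts on RIG-I, fell from 74.7 ± 3.87 to 66.9 ± 1.94 CPM (log2 fold change -0.16, SE 0.0348, adjusted p 0.00351 by the edgeR quasi-likelihood test, Benjamini-Hochberg adjusted). STING1, the adaptor downstream of CGAS, fell by 0.38 (SE 0.0942, adjusted p 0.00770 by edgeR) at a low level of 2.24 ± 0.189 and 1.72 ± 0.240 CPM. IRF3, the transcription factor at the end of the pathway, rose by 0.14 (SE 0.0361, adjusted p 0.0121 by edgeR). CGAS itself was near the filter at 0.286 ± 0.0867 and 0.224 ± 0.0749 CPM and was not called (adjusted p 0.338 by edgeR). Within the 6 libraries with high IL1B, edgeR called 0 of the 15 and 8.2% of all genes (6 of the 15 and 24.8% of all genes at an unadjusted p under 0.05). Within the 6 with low IL1B it called 2 of the 15 and 6.45% of all genes (9 and 22.9% unadjusted). DESeq2 and voom were not run on those subsets.

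ZCCHC10 (chr5:132996985-133026604, minus strand) had the largest change among the 9 relatives. It was at 17.7, 18.2 and 19.1 CPM in siNC and 14.8, 16.9 and 17.8 CPM in siZCC, and 5 of 6 siZCC values lay under all siNC values. The log2 fold change was -0.14 (SE 0.0427, 95% interval -0.23 to -0.05, adjusted p 0.0306 by the edgeR quasi-likelihood test, Benjamini-Hochberg adjusted); the level fell by 8.94%. The lowest value, 14.8 CPM, was in siZCC replicate 4. The call was lost when any of siNC replicates 1, 3 and 6 or siZCC replicates 1, 4 and 5 was left out (adjusted p 0.0550 to 0.0713 in edgeR).

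The change of ZCCHC10 was also computed on each side of the IL1B split. It was -0.23 (SE 0.0584, adjusted p 0.0354) in the 6 libraries with high IL1B and -0.05 (SE 0.0510, adjusted p 0.634) in the 6 with low IL1B, in edgeR fits with Benjamini-Hochberg adjustment. The difference between the sides, -0.18 (SE 0.0724), had an unadjusted p of 0.0246 and an adjusted p of 0.935 in an edgeR interaction term, so it did not pass. ZCCHC8 was at -0.11 and -0.10 on the 2 sides, and ZCCHC17 at -2.56 and -2.46. The plot of alternatives follows ZCCHC8, ZCCHC10 and ZCCHC4 through each setting.

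**Figure D4:**
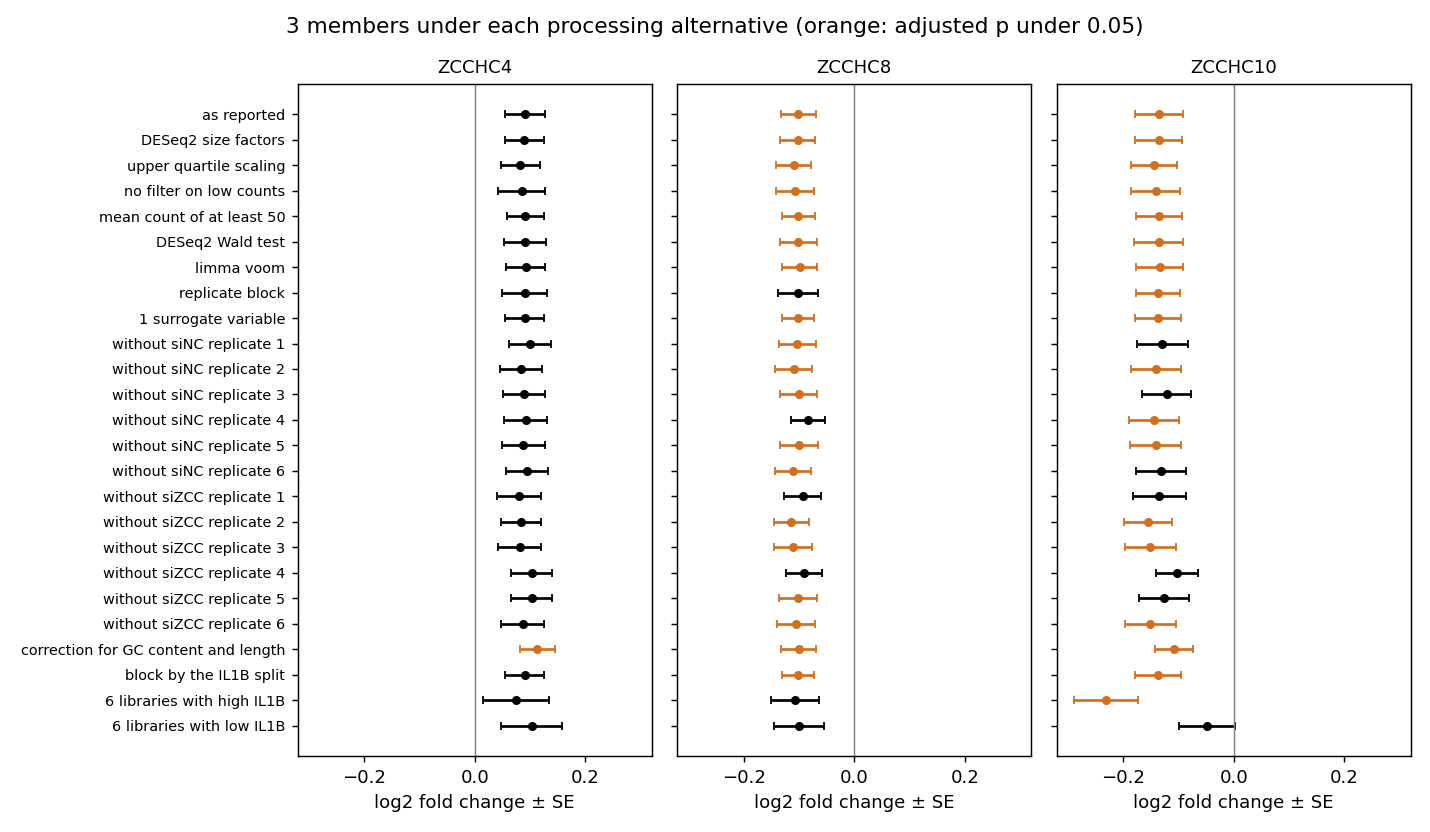
The horizontal axis gives the log2 fold change of siZCC over siNC with its SE for ZCCHC8, ZCCHC10 and ZCCHC4 under each setting listed on the vertical axis, orange where the adjusted p was under 0.05. The direction is kept in each row, while 6 settings for ZCCHC8 and 7 for ZCCHC10 lose the call and 1 setting gives ZCCHC4 a call.

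ZCCHC9 and ZCCHC24 were not called. ZCCHC9, which carries 4 knuckles (chr5:81301590-81313297, plus strand), ran over 17.9, 18.5 and 19.8 CPM in siNC and 17.1, 18.9 and 19.7 CPM in siZCC. Its log2 fold change was -0.005 (SE 0.0408, 95% interval -0.09 to 0.08, adjusted p 0.946 by the edgeR quasi-likelihood test, Benjamini-Hochberg adjusted), and its sign turned in 6 of the 24 alternatives. ZCCHC24 (chr10:79382325-79445627, minus strand) was at 46.3, 50.7 and 52.5 CPM in siNC and 50.1, 53.2 and 55.8 CPM in siZCC. The groups overlapped, with a log2 fold change of 0.06 (SE 0.0360, 95% interval -0.01 to 0.14, adjusted p 0.232 in the same edgeR test). An antisense gene, AL133481.1, shares 259 exonic bases with ZCCHC24 and held at most 7 counts in any library.

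Zinc knuckle genes outside the 10 were read from a list of 16 genes tested. Of these, 1 rose and 2 fell (18.8%, against 22.2% of all genes, median -0.008). RBM4B, a splicing regulator, fell from 53.4 ± 0.831 to 46.0 ± 2.03 CPM (log2 fold change -0.21, SE 0.0307, adjusted p 1.20e-04 by the edgeR quasi-likelihood test, Benjamini-Hochberg adjusted), and it was the gene of this list whose groups did not overlap. PEG10, a gene derived from a retrotransposon, fell by 0.17 (SE 0.0394, adjusted p 0.00534 by edgeR). CNBP, a protein built of zinc knuckles, rose by 0.10 (SE 0.0299, adjusted p 0.0227 by edgeR), a call lost when siNC 4, siNC 6, siZCC 3 or siZCC 6 was left out (adjusted p 0.0539 to 0.0624).

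Further genes with the ZCCHC prefix did not pass the test. ZCCHC12 was at 38.8 ± 2.05 and 36.4 ± 3.21 CPM (adjusted p 0.241) and ZCCHC18 at 26.0 ± 1.17 and 25.5 ± 1.90 CPM (adjusted p 0.716, both by the edgeR quasi-likelihood test, Benjamini-Hochberg adjusted). The terminal uridylyltransferases TUT4 and TUT7, once named ZCCHC11 and ZCCHC6, had log2 fold changes of 0.07 (SE 0.0350, adjusted p 0.166) and 0.12 (SE 0.0535, adjusted p 0.127 by edgeR). SRSF7, a splicing factor of the SR family with a zinc knuckle, had -0.07 (SE 0.0262, adjusted p 0.0626 by edgeR). ZCCHC13, RTL3, RTL4 and LIN28A fell below the filter.

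Genes sharing the other domain of ZCCHC17 were counted too. Of 14 genes with an S1 domain, 0 rose and 1 fell (7.14%, against 22.2% of all genes, median -0.03) in edgeR, with 2 at an unadjusted p under 0.05 (34.4% of all genes). DESeq2's Wald test and limma voom each called 2 lower and 0 higher. The gene called was EXOSC2, given above, and the count was 0 without siNC replicate 1 or siZCC replicate 1, 3 or 4 and 2 without siNC replicate 2 or 5. Of the 64 tested genes whose coding sequence holds the knuckle pattern, 7 rose and 10 fell (26.6%), and without the 10 genes described here the counts were 7 and 7 of 54 (25.9%), shares to be read against 22.2% of all genes.

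Levels were also compared between genes after division by exonic length. In siNC, ZCCHC17 had the highest level of the 10 at 29.6 ± 1.29 CPM per kb (SD, n = 6), followed by ZCCHC14 at 15.2 ± 1.01 and ZCCHC3 at 14.6 ± 0.646, whose ranges overlapped. ZCCHC24 (9.98 CPM per kb), ZCCHC10 (7.14) and ZCCHC7 (4.88) came next, each apart from its neighbours in the order. ZCCHC9 (3.64) overlapped ZCCHC8 (3.62), and ZCCHC4 (2.75) overlapped ZCCHC2 (2.65). In siZCC, ZCCHC17 was the fifth of 10 at 5.20 ± 0.264 CPM per kb, within reach of ZCCHC7 at 5.06 ± 0.121, and ZCCHC3 (15.1) and ZCCHC14 (14.8) led with overlapping ranges. The order of the remaining 7 genes was the same in each group. Exonic length was taken over all annotated exons, so genes with unused long exons are placed too low.

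**Figure D5:**
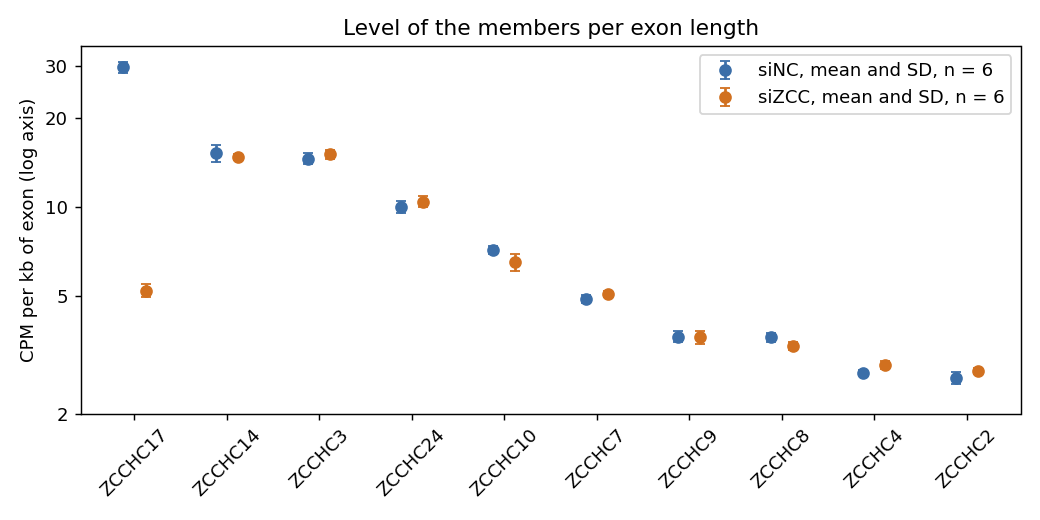
The vertical axis is the level in CPM per kb of exon on a log axis. Points give the mean and bars the SD of the siNC (blue) and siZCC (orange) libraries for each gene (n = 6 each). ZCCHC17 leads in siNC at 29.6 and lies beside ZCCHC7 in siZCC at 5.20, and the other 9 genes hold their places apart from ZCCHC14 and ZCCHC3, whose ranges overlap in each group.

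The variation of ZCCHC17 between libraries of 1 group was small, and the genes with the most similar deviations were listed as a description. Over deviations of log2 CPM from the group means in 12 libraries, the closest of 12624 genes, each averaging 5 CPM or more, were PPIEL (Pearson's r 0.92), LINC00294 (0.91), AC007066.2 (0.87), RELB (0.87) and AC004540.2 (0.86). These 5 were picked as the highest r of 12624 over 12 points, and such a pick can yield high values by selection alone. Among the 9 relatives r ran from -0.52 for ZCCHC24 to 0.63 for ZCCHC3. The 12 points share library depth, and the coefficient of variation of the 10 genes within a group was only 1.83% to 6.63%.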

How the data were processed

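The authors deposited whole-number counts per gene symbol for 12 libraries (6 siNC, 6 siZCC). Total RNA from Qiazol lysates was made into libraries by the NEBNext Ultra II Directional kit, per the labels' protocols. The submitters' processing notes name bcl2fastq 2.17, STAR 2.7.6a, featureCounts 2.0.1 and GRCh38; the annotation and strand setting are not given in the sources used here, so reads of overlapping genes may be shared.

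Counts were tested in R 4.3.3 with edgeR 4.0.16 (filterByExpr, TMM, glmQLFit and glmQLFTest, no covariate), with Benjamini-Hochberg adjustment over 24671 genes and a threshold of 0.05. Intervals are 95% from the test's degrees of freedom. CPM is TMM-scaled. The script was tested on simulated data. Positions, lengths and coding sequences come from GENCODE v29. The 9 relatives held 931 counts or more in each library. The biological coefficient of variation, a common value over all genes tested, was 6.55%.

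The genes and lists were chosen with earlier results of these data known. The text names all 10 genes and up to 3 genes with the smallest p among those called in each pathway list. It also names every called gene of the zinc knuckle list and the 5 most like ZCCHC17. Other named genes are partners or further list genes, chosen after their values were seen. Alternatives were DESeq2 1.42.0 (size factors, Wald test), upper quartile scaling, no filter or a mean count of 50, limma 3.58.1 voom, 1 surrogate variable (sva 3.50.0), a replicate block and leaving out each library. A correction for GC content and length and fits by the IL1B split (at 1 CPM) were chosen after seeing the data.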

Additional observations from a re-analysis of the deposited data

Results flagged for a closer look

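The total of siNC replicate 4, 90755953 counts, lay below the other 5 siNC libraries (109973707 to 120023356), a gap of 0.657 of the group's whole range. It was the 1 value set apart in this way among 22 groups of 6 values examined, and chance flags about 1 in 20 such groups. Without this library ZCCHC17 kept its fall, and ZCCHC8 was no longer called (adjusted p 0.0703 by the edgeR quasi-likelihood test, Benjamini-Hochberg adjusted).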

How the results depend on the processing

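ZCCHC17 kept its direction and call in all 24 alternatives (log2 fold change -2.56 to -2.46). Calls of 3 members became 1 in the 6 libraries with low IL1B, and 1 to 3 when single libraries were left out (1 without siZCC replicate 1 or 4). They became 4 with GC and length corrected, 1 higher (ZCCHC4) and 3 lower. Over all genes, 5481 calls became 2043 in the 6 libraries with high IL1B and 1602 in the 6 with low IL1B, and 4484 to 5626 without single libraries. Each IL1B side has fewer samples. Leaving out single libraries gave 1 to 7 exosome genes, 2 to 4 zinc knuckle and 2 to 4 tailing genes, 3 to 5 N6-methyladenosine genes, 7 to 8 sensing genes and 0 to 2 S1 genes.

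In the 6 libraries with high IL1B, edgeR called 1 zinc knuckle, 1 exosome, 1 tailing and 1 N6-methyladenosine gene, and 0 sensing and 0 S1 genes (6 and 1 at an unadjusted p under 0.05). In the 6 with low IL1B it called 1 exosome, 1 tailing, 1 N6-methyladenosine, 2 sensing and 0 S1 genes (1 S1 gene unadjusted). With GC and length corrected, 5 zinc knuckle, 5 tailing and 3 S1 genes were called. Over all genes, that fit called 6247 of 23407, against 5481 of 24671 without the correction. With no filter on low counts, 2 exosome, 2 N6-methyladenosine and 0 S1 genes (3 unadjusted) were called, and 4785 of 48221 genes in all. CNBP, EXOSC7, EXOSC2, SAMD4B and METTL16 were not called in that fit (adjusted p 0.0579, 0.0502, 0.0676, 0.0793 and 0.0733 in edgeR). Upper quartile scaling gave 3 N6-methyladenosine and 2 S1 genes, and 5416 genes in all. A mean count of 50, DESeq2's Wald test and voom gave 2 S1 genes each, and 5573, 6005 and 5446 genes in all. The causes were not tested.

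The log2 fold change of ZCCHC9 turned positive without siNC replicate 1 (0.013), siNC replicate 6 (0.0078), siZCC replicate 4 (0.0094) or siZCC replicate 5 (0.018), within a range of -0.023 to 0.018 over single libraries left out. It was also positive with GC and length corrected (0.016) and in the libraries with low IL1B (0.037).

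Same-numbered libraries did not deviate together (r -0.08 to 0.02). In every same-numbered pair the libraries lay on opposite sides of the IL1B split, so these r values cannot decide whether the numbers mark pairs. The replicate block called 4902 genes in all, 3 N6-methyladenosine and 0 S1 genes (2 unadjusted), and no longer ZCCHC8, EXOSC2, SAMD4B and TENT5A (adjusted p 0.0658, 0.0712, 0.0513 and 0.0635 in edgeR).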

Other observations

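Of 54 tested genes outside the family whose coding sequence holds the knuckle codon pattern, 7 rose and 7 fell, and the groups did not overlap in 7, where 9.74% of all genes tested did not overlap. Besides RBM4B these were DGKI and ANKIB1, which rose, and FBXO5, XRN2, SLU7 and ZNF32, which fell. Values are given for 4 of them, chosen after their values were seen, and all adjusted p-values are from the edgeR quasi-likelihood test, Benjamini-Hochberg adjusted. DGKI, a diacylglycerol kinase, rose from 54.4 ± 6.13 to 72.8 ± 3.67 CPM (SD, n = 6 each; log2 fold change 0.42, SE 0.0592, adjusted p 1.00e-04). FBXO5, an inhibitor of the anaphase-promoting complex, fell from 17.0 ± 0.510 to 13.5 ± 0.732 CPM (-0.32, SE 0.0404, adjusted p 3.50e-05), in libraries where 6 of 7 dividing-cell markers also fell. Whether the lower level of those markers bears on FBXO5 was not tested. XRN2, a nuclear exonuclease, fell from 95.8 ± 2.20 to 83.8 ± 1.153 CPM (-0.19, SE 0.0249, adjusted p 4.77e-05). SLU7, a splicing factor with a zinc knuckle, fell from 46.9 ± 1.54 to 43.0 ± 1.33 CPM (-0.13, SE 0.0303, adjusted p 0.00677).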
